A study of Homo sapiens with 4 samples.

Results

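The 38 genes described here encode the machinery of mitosis and of the G2/M transition: cyclins and the kinase CDK1, mitotic kinases and phosphatases, checkpoint and kinetochore proteins, kinesins, spindle and cytokinesis proteins, and the transcription factor FOXM1. They were taken by gene symbol from a list drawn up with earlier results of these data known, and all 38 were found among the 19775 genes of the deposited table. RNA was measured by poly(A)-selected paired-end sequencing in the wild-type human embryonic stem cell line H1. The cells had been kept for 12 h in E8, a defined medium with insulin, FGF2 and TGFβ, to which 1 µM the ERK5 inhibitor XMD892 had been added. By its title, the series is about ERK5 and the autocrine growth signals of pluripotent cells. ERK5 is a mitogen-activated protein kinase. Of its 4 labelled samples, the 2 with XMD892 could be matched to a column of values and are called replicate 2 and replicate 1 here. The 2 samples in E8 alone, labelled as 12 h, were not analysed here, because the untreated columns carry another culture time. A further column named for XMD892 at 12 h, with replicate number 3, matched none of the labelled samples and was not used either. What can be given is therefore the level of each gene in treated cells and how far the 2 treated libraries lie apart; none of it measures what XMD892 does. Whether separate cultures were used for the libraries is not stated in the labels, and their spread may reflect technical variation only.

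A dividing cell enters mitosis when cyclin B bound to CDK1 is freed from inhibitory phosphate by the CDC25 phosphatases. It leaves mitosis when the anaphase-promoting complex (APC/C), a ubiquitin ligase, marks cyclin B and securin for destruction. The spindle checkpoint holds the APC/C back until every kinetochore is attached to microtubules. Most of these genes are transcribed in late S, G2 and M phase. Their promoters often carry a CHR element (cell cycle genes homology region), which is bound by the MuvB complex through its subunit LIN54. CCAAT boxes, which are bound by NF-Y, are common beside it. MuvB represses these genes in quiescent cells as part of the DREAM complex and activates them with MYBL2 and later FOXM1. Human embryonic stem cells have a short G1 phase and divide fast, so a large share of a culture is in S, G2 or M at any time. In bulk RNA, fewer cells in G2 or M and less RNA of a gene per such cell cannot be told apart.

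Promoter sequence was available from RefSeq (build GRCh38.p14) for 32 of the 38 genes, as windows of 300 bases from 250 before to 50 after each annotated start. No entry was used for AURKA, BIRC5, TTK, UBE2C, TPX2 and FOXM1. The CHR letters were searched as TTTGAA and TTCGAA and the CCAAT box as CCAAT, each on both strands. The last 130 bases before the start are shown for 6 genes. These are the cyclin B genes and CDK1, the mitotic kinase PLK1, and a motor and a spindle protein (KIF11, HMMR). They serve as examples and do not show how common the letters are. Capitals mark every match. On the opposite strand TTTGAA reads TTCAAA and CCAAT reads ATTGG, and matches that touch or overlap appear as 1 run of capitals. All 6 lie on the plus strand, at chr5:69167020-69167149 (CCNB1), chr15:59105016-59105145 (CCNB2), chr10:60778348-60778477 (CDK1, the downstream of its annotated starts), chr16:23678759-23678888 (PLK1), chr10:92593000-92593129 (KIF11) and chr5:163460502-163460631 (HMMR).
CCNB1: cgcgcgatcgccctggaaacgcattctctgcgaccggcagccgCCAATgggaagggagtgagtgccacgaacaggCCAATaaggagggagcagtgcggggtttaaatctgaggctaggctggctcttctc
CCNB2: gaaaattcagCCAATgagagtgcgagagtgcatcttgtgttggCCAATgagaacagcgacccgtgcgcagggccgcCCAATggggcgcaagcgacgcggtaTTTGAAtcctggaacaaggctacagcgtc
CDK1: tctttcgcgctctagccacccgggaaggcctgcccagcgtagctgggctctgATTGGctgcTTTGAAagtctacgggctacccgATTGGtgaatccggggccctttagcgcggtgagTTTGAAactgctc
PLK1: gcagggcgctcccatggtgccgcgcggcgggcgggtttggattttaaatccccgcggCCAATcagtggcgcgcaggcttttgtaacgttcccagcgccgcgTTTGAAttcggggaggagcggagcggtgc
KIF11: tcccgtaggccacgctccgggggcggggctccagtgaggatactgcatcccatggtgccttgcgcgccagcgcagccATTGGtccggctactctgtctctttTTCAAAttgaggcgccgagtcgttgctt
HMMR: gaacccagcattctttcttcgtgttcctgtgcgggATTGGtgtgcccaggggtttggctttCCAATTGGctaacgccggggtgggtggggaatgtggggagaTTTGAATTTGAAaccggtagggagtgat

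The CHR letters in either form were found for 25 of the 32 genes (78.1%), against 19.5% of all 27305 genes with a promoter in the same RefSeq table. CCAAT letters were found for 26 of the 32 genes (81.2%), against 39.7% of all genes. Both occurred together for 20 of the 32 genes (62.5%), against 7.85% of all genes. Genes with several annotated starts have more windows to match in. Counted by start, both were found in 22 of 44 windows, against 6.38% of all 35116 windows. A CHR match within 70 bases before the start, a window set after the positions were seen, was present for 17 genes (53.1%), against 4.51% of all genes. Such a match together with CCAAT letters was present for 14 of the 32 genes (43.8%), against 1.80% of all genes. In CCNB2 the CHR letters began 29 bases before the start, and 3 CCAAT matches lay 33 bases apart at 120, 87 and 54 bases before it. CCNB1 and CDK1 each had a pair of CCAAT matches 32 bases apart. CCNB1 had no match to either CHR form in this window. PLK1 and KIF11 had the CHR letters 29 and 28 bases before the start, with a CCAAT match 73 and 53 bases before it. CENPE and KIF2C matched none of the letters. A match is a run of letters and not a shown binding site.

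**Figure D1:**
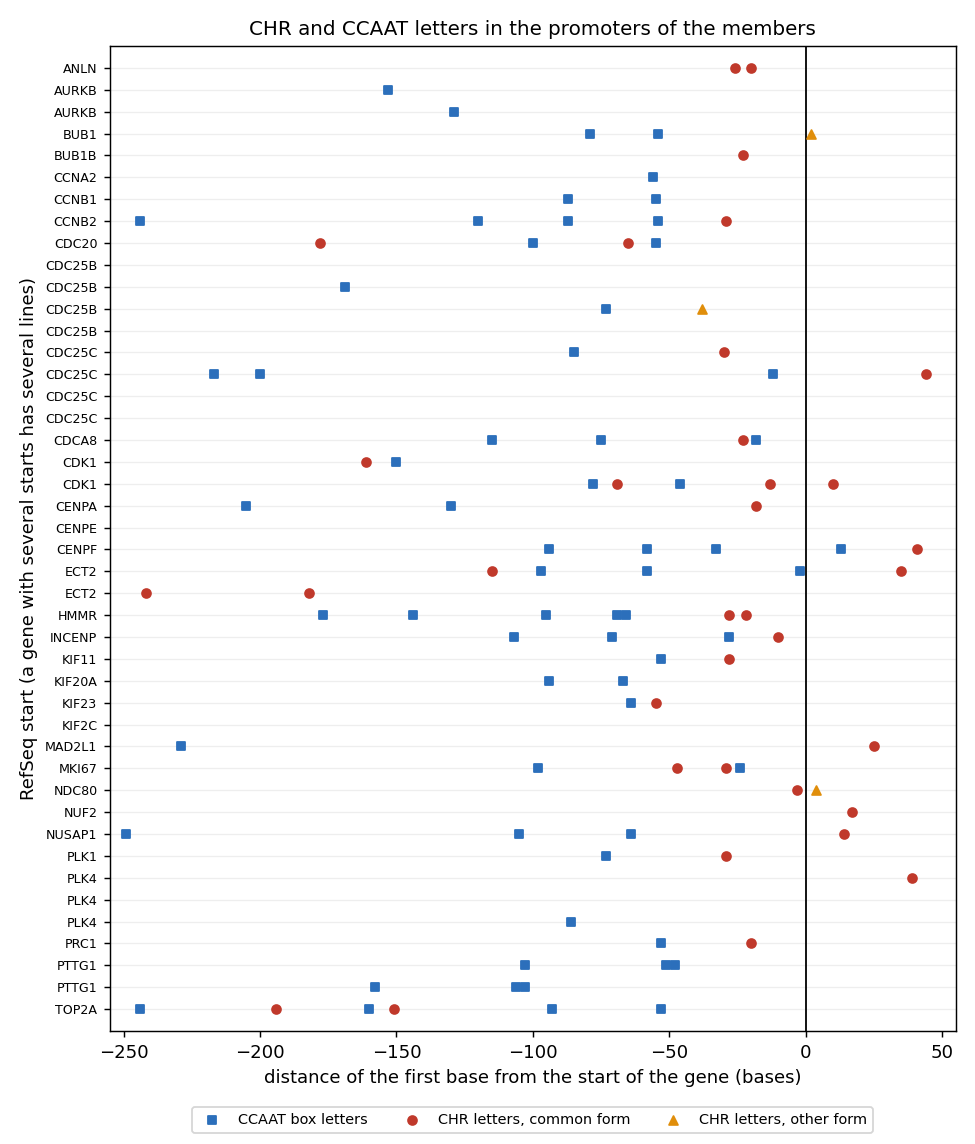
Position of CHR letters (circles and triangles) and CCAAT letters (squares) in the promoter windows of the 32 genes with a RefSeq promoter, 1 line for each of the 44 annotated starts; the x axis is the distance in bases of the first base of a match from the start. A CHR match lies within 70 bases before the start in 17 genes. In CCNB2 the CCAAT matches nearest the start begin 120, 87 and 54 bases upstream and the CHR letters 29 bases upstream.

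The deposited values are counts per gene after division by a size factor for each library, and are called normalized counts here. Whole reads were recovered from them, 20217648 in replicate 2 and 18528689 in replicate 1. A level in RPKM is a read count set against the exon length of the gene and the recovered reads of the library, so that genes of different length can be compared. Normalized counts use the authors' size factors instead of the recovered reads. A fold between the libraries taken from RPKM therefore differs somewhat from the same fold in normalized counts. Cells of both libraries carried the markers of the labelled cell type. The 5 pluripotency markers fixed for this check (POU5F1, SOX2, NANOG, LIN28A, DNMT3B) summed to 2205 RPKM in replicate 2 and 1815 RPKM in replicate 1. They did not all differ in 1 direction. In replicate 2 and replicate 1, POU5F1 stood at 1430 and 734 RPKM, SOX2 at 98.8 and 90.2 RPKM, and NANOG at 30.0 and 28.5 RPKM. LIN28A stood at 402 and 536 RPKM and DNMT3B at 245 and 426 RPKM, both lower in replicate 2. Of the markers of trophoblast or amnion 3 of 5 were listed, of endoderm 1 of 4 and of mesoderm 4 of 5, and each of these lists summed to at most 3.08 RPKM in either library. The mesoderm sum leaves out T, for which no length was available. T had 9 reads in replicate 2 and 8 in replicate 1. Of the neuroectoderm markers PAX6 was not listed, SOX1 stood at 0.56 RPKM in replicate 2 and 0.80 RPKM in replicate 1, and the filament gene NES stood at 89.7 RPKM in replicate 2 and 169.9 RPKM in replicate 1.

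The mitotic genes were well expressed in the treated cells. All 38 passed 1 RPKM in each library, as did 11482 of the 19283 genes with a length and 10351 of 14509 protein-coding genes. The median member stood at 26.5 RPKM, while the median was 2.31 RPKM for all genes with a length and 4.18 RPKM for protein-coding genes. All 38 members are protein-coding. The members' median percentile among all genes was 91.7, and 24 of 38 lay above the 90th percentile. A mean above 100 RPKM was seen for 3 genes (CCNB1, CDC20, UBE2C), 32 lay between 10 and 100 RPKM, and 3 (CDC25C, CENPE, CDC25B) lay below 10 RPKM. The highest member stood 21.8 times above the lowest. Levels and their order depend on the length used. With the longest transcript in place of merged exons, 27 of 38 members moved by at least the SD of their 2 libraries. CDK1 then rose from 39.3 to 79.2 RPKM and AURKB from 53.6 to 95.7 RPKM. Members took 0.562% of the reads in replicate 2 and 0.491% in replicate 1. Each member had at least 428 reads in each library. The G1/S and DNA replication genes, a list of 24 such as PCNA and the MCM helicase subunits, had a median of 31.0 RPKM.

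**Figure D2:**
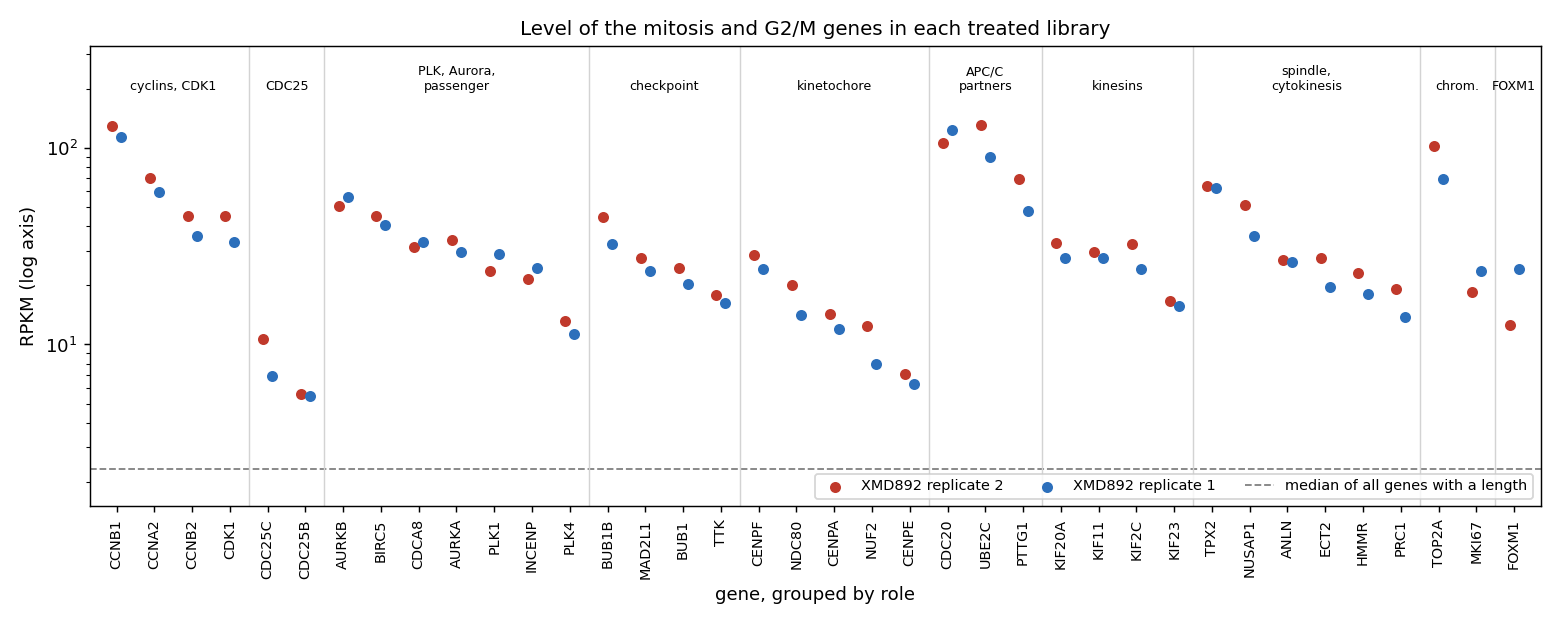
Level of each of the 38 genes in RPKM (log axis) in XMD892 replicate 2 (red) and replicate 1 (blue), grouped by role and ordered by mean level within a role; the dashed line is the median of all genes with a length, 2.31 RPKM. All members lie above that line, and FOXM1 and MKI67 are among those with the lower value in replicate 2.

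The cyclins and CDK1 were among the more abundant members, with a median of 52.7 RPKM over the 4 genes. CCNB1 encodes cyclin B1, the main mitotic partner of CDK1, and stood at 129 RPKM in replicate 2 and 113 RPKM in replicate 1. Its locus is chromosome 5, 69167010 to 69178245, plus strand (GRCh38). On 6651 reads in replicate 2 and 5369 in replicate 1, it had the highest mean RPKM of the members, at 121 ± 10.8 RPKM (SD, n = 2). CCNA2, cyclin A2, which drives S phase and the entry into mitosis, stood at 70.5 RPKM in replicate 2 and 59.8 RPKM in replicate 1. CCNB2, cyclin B2, a second cyclin B with a Golgi-associated pool, stood at 44.8 RPKM in replicate 2 and 35.6 RPKM in replicate 1. Per length, CCNB1 exceeded CCNB2 by 2.87-fold in replicate 2 and by 3.18-fold in replicate 1. CDK1, the kinase itself, stood at 45.2 RPKM in replicate 2 and 33.3 RPKM in replicate 1. All 4 were higher in replicate 2, with differences of 0.28 (CCNB1) to 0.54 (CDK1) on the log2 scale of normalized counts.

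The CDC25 phosphatases, which activate CDK1, were among the lowest members. CDC25C, the form most closely tied to mitotic entry, stood at 10.6 RPKM in replicate 2 and 6.92 RPKM in replicate 1, on 718 and 428 reads. Replicate 2 was 1.65-fold higher in normalized count. CDC25B, which starts the activation at the centrosome, stood at 5.61 RPKM in replicate 2 and 5.48 RPKM in replicate 1, and its counting interval included equal levels. Exons of CDC25C overlap those of FAM53C on the opposite strand over 293 bases. The strand setting of the counting is not given in the sources used here, so such reads cannot be assigned with certainty.

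Polo-like and Aurora kinases were expressed at moderate levels. PLK1, which acts at centrosomes, kinetochores and the midbody, stood at 23.6 RPKM in replicate 2 and 28.7 RPKM in replicate 1. PLK4, which controls centriole duplication, stood at 13.1 RPKM in replicate 2 and 11.4 RPKM in replicate 1 and was the lowest of the Polo-like and Aurora kinases. AURKA, the spindle pole kinase, stood at 33.9 RPKM in replicate 2 and 29.6 RPKM in replicate 1. TPX2, its activator, reached 64.0 RPKM in replicate 2 and 62.4 RPKM in replicate 1. PLK1 was one of the few members with the lower value in replicate 2, at -0.18 on the log2 scale, or -0.10 after a trend on exon length and GC content was subtracted.

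The chromosomal passenger complex, which corrects faulty attachments and later drives cytokinesis, consists of the kinase AURKB, the scaffold INCENP, survivin (BIRC5) and borealin (CDCA8). AURKB was its most abundant transcript, at 50.8 RPKM in replicate 2 and 56.3 RPKM in replicate 1. BIRC5 stood at 44.8 RPKM in replicate 2 and 40.8 RPKM in replicate 1. CDCA8 stood at 31.5 RPKM in replicate 2 and 33.3 RPKM in replicate 1, and INCENP at 21.4 RPKM in replicate 2 and 24.4 RPKM in replicate 1. For the subunits AURKB, CDCA8 and INCENP the counting interval of the ratio between the libraries included equal levels with the authors' size factors. Their differences on the log2 scale were -0.05, 0.02 and -0.08, and BIRC5 was higher in replicate 2 by 0.24. With total reads as the scale, AURKB, CDCA8 and INCENP stood at -0.15, -0.08 and -0.18. The intervals were not recomputed on that scale. The order AURKB, BIRC5, CDCA8, INCENP held in both libraries, and AURKB exceeded INCENP 2.37-fold in replicate 2 and 2.31-fold in replicate 1.

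The spindle checkpoint genes were all higher in replicate 2. BUB1B, which encodes BUBR1, the inhibitor of CDC20, was the highest of them at 44.6 RPKM in replicate 2 and 32.3 RPKM in replicate 1. MAD2L1, which encodes the checkpoint protein MAD2, stood at 27.5 RPKM in replicate 2 and 23.6 RPKM in replicate 1. BUB1, a kinetochore kinase, stood at 24.6 RPKM in replicate 2 and 20.2 RPKM in replicate 1. TTK, the kinase MPS1 that starts checkpoint signalling, stood at 17.8 RPKM in replicate 2 and 16.2 RPKM in replicate 1. Their differences ran from 0.24 (TTK) to 0.57 (BUB1B) on the log2 scale.

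Centromere and kinetochore genes spanned a lower range. CENPF, a large protein of the outer kinetochore, was the highest at 28.7 RPKM in replicate 2 and 24.1 RPKM in replicate 1. NDC80 and NUF2 encode paired subunits of the complex that grips microtubules. NDC80 stood at 20.1 RPKM in replicate 2 and 14.1 RPKM in replicate 1, on 1466 and 938 reads. NUF2 stood at 12.5 RPKM in replicate 2 and 7.91 RPKM in replicate 1, on 847 and 493 reads. Both were higher in replicate 2, NUF2 by 1.69-fold and NDC80 by 1.54-fold in normalized count, and the ratio of NDC80 to NUF2 per length was 1.62 in replicate 2 and 1.78 in replicate 1. NUF2 had the largest positive difference of all members, 0.75 on the log2 scale with a counting interval of 0.59 to 0.92. CENPA, the histone H3 variant that marks centromeres, stood at 14.3 RPKM in replicate 2 and 11.9 RPKM in replicate 1. CENPE, a kinetochore motor, was the lowest of the group at 7.07 RPKM in replicate 2 and 6.32 RPKM in replicate 1.

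The partners of the APC/C held the other 2 members above 100 RPKM. CDC20, the activator that the checkpoint blocks, stood at 106 RPKM in replicate 2 and 123 RPKM in replicate 1. UBE2C, the ubiquitin-conjugating enzyme of the APC/C, stood at 131 RPKM in replicate 2 and 89.9 RPKM in replicate 1. PTTG1, securin, which restrains the cohesin-cleaving protease separase, stood at 69.5 RPKM in replicate 2 and 47.7 RPKM in replicate 1. UBE2C and PTTG1 were both 1.56-fold higher in replicate 2 in normalized count, while CDC20 was 1.09-fold higher in replicate 1. The mean levels of CCNB1, CDC20 and UBE2C lay at 121 ± 10.8, 114 ± 12.5 and 110.4 ± 29.04 RPKM (SD, n = 2), so these 3 did not differ beyond the spread of the libraries. With the longest transcript in place of merged exons as the length, UBE2C ranked first at 155 RPKM, and PTTG1 also passed 100 RPKM, at 110 RPKM. UBE2C and PTTG1 have processed pseudogenes or near copies (UBE2CP1 to UBE2CP4 in name, PTTG2, PTTG3P) that are not listed in the table, so part of their reads may be uncertain. AURKA, BUB1, CCNB2 and MKI67 also have processed pseudogenes, by name, that are not listed. Further members share exon bases with other genes. Among them are BUB1B (457 with BUB1B-PAK6) and CENPA (138 with SLC35F6) on the same strand, and CCNA2 (254 with EXOSC9) on the opposite strand.

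The kinesins were all higher in replicate 2. KIF20A, a cytokinesis motor, stood at 33.0 RPKM in replicate 2 and 27.5 RPKM in replicate 1. KIF11, which pushes spindle poles apart, stood at 29.4 RPKM in replicate 2 and 27.6 RPKM in replicate 1. KIF2C, a microtubule depolymerase, stood at 32.5 RPKM in replicate 2 and 24.1 RPKM in replicate 1. KIF23, the motor subunit of centralspindlin, stood at 16.6 RPKM in replicate 2 and 15.8 RPKM in replicate 1. The differences ran from 0.17 (KIF23) to 0.53 (KIF2C) on the log2 scale, none as large as 1.5-fold.

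Of the 6 spindle and cytokinesis genes all were higher in replicate 2, and TPX2 and NUSAP1 had the highest levels. NUSAP1, a spindle microtubule-bundling protein, stood at 51.5 RPKM in replicate 2 and 35.8 RPKM in replicate 1, a 1.54-fold gap in normalized count. ECT2, the exchange factor that activates RhoA at the division plane, stood at 27.6 RPKM in replicate 2 and 19.7 RPKM in replicate 1, a gap just above the limit of 1.5-fold. PRC1, which bundles the central spindle, was the lowest at 19.2 RPKM in replicate 2 and 13.8 RPKM in replicate 1. ANLN (anillin, of the contractile ring) and TPX2 differed least, by 0.14 each on the log2 scale, and HMMR, a spindle assembly protein, differed by 0.46. Other annotated genes on the same strand, not listed in the table, share 3181 exon bases with PRC1 and 1787 with NUSAP1.

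The chromosome factors differed in direction. TOP2A, topoisomerase II alpha, which untangles sister chromatids, stood at 102 RPKM in replicate 2 and 69.3 RPKM in replicate 1, on 13319 and 8264 reads, the most of any member. MKI67, the antigen Ki-67, which coats mitotic chromosomes and is used as a marker of proliferation, stood at 18.5 RPKM in replicate 2 and 23.6 RPKM in replicate 1, on 4791 and 5592 reads. TOP2A was 1.58-fold higher in replicate 2 and MKI67 was 1.19-fold higher in replicate 1. The log2 difference of TOP2A, 0.66, fell below the 1.5-fold limit with total reads as the scale (0.56) and with quantile normalization (0.54). That of MKI67, -0.25, shrank to -0.06 after the length and GC trend was subtracted.

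FOXM1 was the member that stood furthest toward replicate 1. It encodes a forkhead factor that activates many G2/M genes, and its locus is chromosome 12, 2857681 to 2877155, minus strand. It stood at 12.6 RPKM in replicate 2 and 24.2 RPKM in replicate 1, on 1250 and 2195 reads. The normalized count was 1.79-fold higher in replicate 1, and the log2 difference was -0.84 with a counting interval of -0.94 to -0.74. Exons of ITFG2 on the opposite strand overlap those of FOXM1 over 781 bases, and ITFG2 had 364 reads in replicate 2 and 502 reads in replicate 1. The 10 genes of MuvB and its partners in the wider list went both ways, 5 higher in each library, with a median of 0.10. MYBL2 stood at 58.6 RPKM in replicate 2 and 104 RPKM in replicate 1, and LIN54 at 1.72 RPKM in replicate 2 and 3.41 RPKM in replicate 1. The MuvB subunits LIN52, LIN9, LIN37 and RBBP4 were higher in replicate 2, by 0.61, 0.48, 0.35 and 0.28 on the log2 scale; LIN37 had only 21 reads in replicate 2 and 16 in replicate 1, and its counting interval included equal levels.

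Taken over all 38 members, the difference of log2(normalized count + 1) between replicate 2 and replicate 1 had a median of 0.33, with an interquartile range of 0.15 to 0.56. The median over the 16148 genes that averaged 10 or more normalized counts was 0.02, with an interquartile range of -0.32 to 0.33. All 38 members passed that minimum. Replicate 2 was the higher library for 32 members, against 52.1% of all genes tested, and replicate 1 for 6 members (FOXM1, MKI67, PLK1, CDC20, INCENP, AURKB), against 47.9%. The exact counting interval (Clopper-Pearson, 95%) lay above equal levels for 30 members, against 30.8% of all genes tested, and below for 4 members, against 27.3%. It included equal levels for 4, namely AURKB, INCENP, CDCA8 and CDC25B. A gap of at least 1.5 times toward replicate 2 was seen for 8 members (NUF2, CDC25C, TOP2A, UBE2C, PTTG1, NUSAP1, NDC80, ECT2), against 12.9% of all genes tested. The same gap toward replicate 1 was seen for 1 member, FOXM1, against 13.7%. No member reached a gap of 2 times, which 4.76% of all genes tested did toward replicate 2 and 6.14% toward replicate 1. The members just inside and just outside the 1.5-fold limit were ECT2 at 0.59 and PRC1 at 0.58 on the log2 scale. There is 1 library on each side, so these differences have no replicate check and no p-value, and they do not show which library is the unusual one. The intervals cover counting error only and were computed with the authors' size factors alone. Whether such an interval excludes equal levels also depends on read depth. Each member had at least 428 reads in each library, while a gene tested needed only a mean of 10. The shares of members and of all genes tested are thus not at like depth. At a minimum mean of 50, a 1.5-fold gap was seen for 10.1% of genes toward replicate 2 and 9.15% toward replicate 1.

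**Figure D3:**
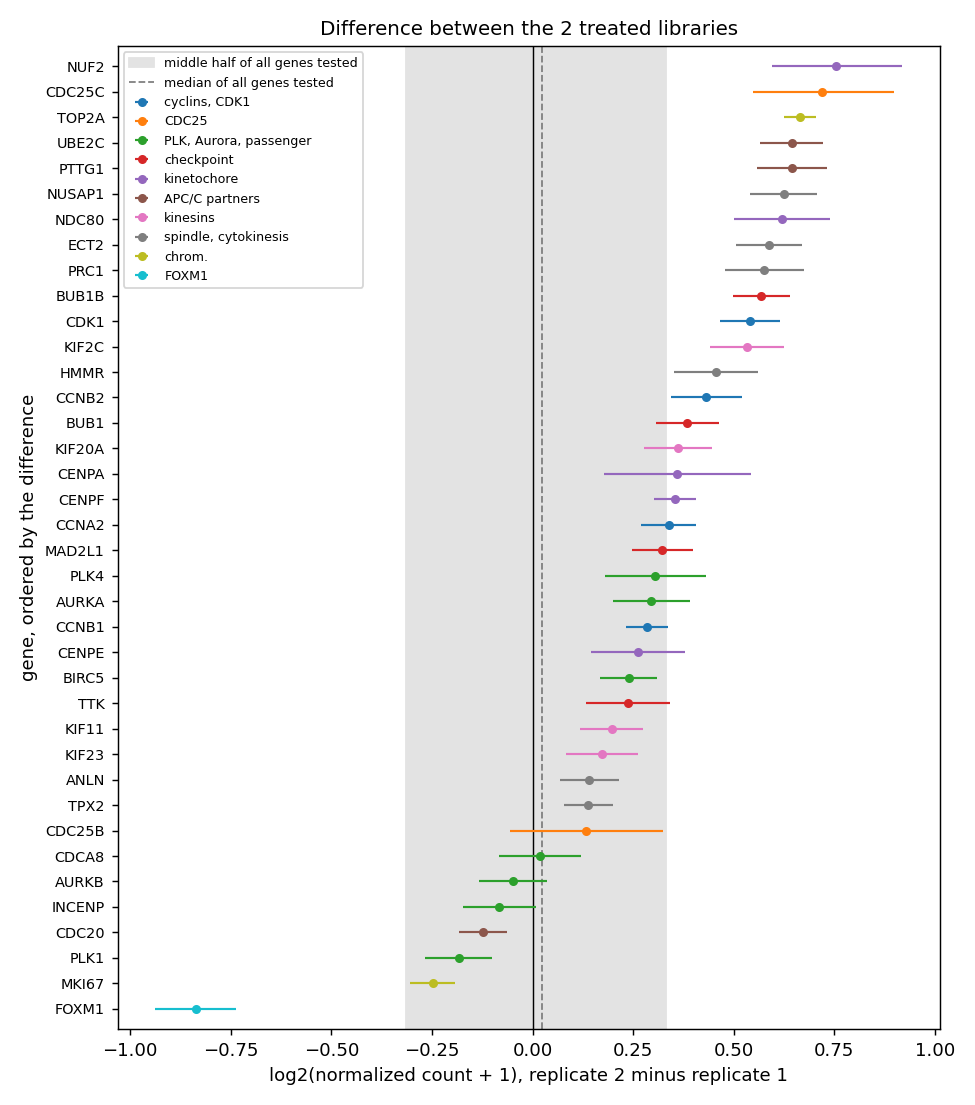
Difference of log2(normalized count + 1), replicate 2 minus replicate 1, for each of the 38 genes, with exact 95% counting intervals and coloured by role; the grey band is the interquartile range of all 16148 genes tested (-0.32 to 0.33) and the dashed line their median. The points run from FOXM1 at -0.84 to NUF2 at 0.75, and 32 of 38 lie above 0.

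The scale of the libraries bears on these counts. With total recovered reads in place of the authors' size factors the median of all genes tested moved to -0.08 and that of the members to 0.23. Such a change of scale moves all genes by nearly the same amount. On total reads a gap of 1.5 times toward replicate 2 was left for 2 members (NUF2 and CDC25C) against 1 toward replicate 1. Over all genes tested that gap split into 1626 toward replicate 2 and 2761 toward replicate 1 on total reads, against 2083 and 2211 on the authors' scale. CDCA8 was the member whose direction turned on total reads. GC content also moved with the difference: across the 38 members, which share both libraries, Pearson's r between transcript GC content and the difference was -0.54. The members' median GC content was 43.8%, against 48.5% over the genes tested, while FOXM1 stood at 55.6%. After a trend on exon length and GC content was subtracted, 32 members were still higher in replicate 2, with a median of 0.26. FOXM1 then stood at -0.75, against -0.84 before.

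The 2 libraries also differed in genes outside the cell cycle. Of the 12 hypoxia and glycolysis genes fixed for comparison, 11 were higher in replicate 2 with a median difference of 1.01, and they summed to 1280.4 RPKM there and 899.9 RPKM in replicate 1. Of the 7 fibroblast markers, COL3A1, DCN and LUM were not listed, and the 4 listed ones summed to 74.3 RPKM in replicate 2 and 109.8 RPKM in replicate 1. TAGLN stood at 5.34 RPKM in replicate 2 and 62.2 RPKM in replicate 1, and COL1A1 at 0.99 RPKM in replicate 2 and 7.85 RPKM in replicate 1. COL1A2 stood at 3.84 RPKM in replicate 2 and 6.01 RPKM in replicate 1. THY1 went the other way, at 64.2 RPKM in replicate 2 and 33.7 RPKM in replicate 1, and made up most of the sum in replicate 2. The part of these differences in the values of the mitotic genes was not tested.

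The wider mitotic machinery, 120 further genes fixed by symbol, was also described between the libraries, and all 120 genes passed the minimum of 10. Replicate 2 was higher for 82 of them and replicate 1 for 38, with a median difference of 0.13; of all genes tested 52.1% and 47.9% were. The counting interval lay above equal levels for 59 and below for 22, against 30.8% and 27.3% of all genes tested. Here too the share of intervals that exclude equal levels depends on read depth. A gap of at least 1.5 times was seen for 9 toward replicate 2 and 4 toward replicate 1, fewer in each direction than the 12.9% and 13.7% of all genes tested would give. At a minimum mean of 50 the latter shares were 10.1% and 9.15%. The median level was 14.4 RPKM. By complex, the medians were 0.23 for 8 further kinesins, 0.15 for 23 spindle and cytokinesis genes, 0.12 for 11 genes of the G2 checkpoint and CDK1 control, 0.11 for 34 kinetochore genes, 0.08 for 18 APC/C genes and for 16 condensin and cohesin genes, and 0.10 for 10 genes of MuvB and its partners. The 24 G1/S and replication genes had a median of -0.05, with 8 higher in replicate 2 and 16 in replicate 1. The difference between these lists was not tested.

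**Figure D4:**
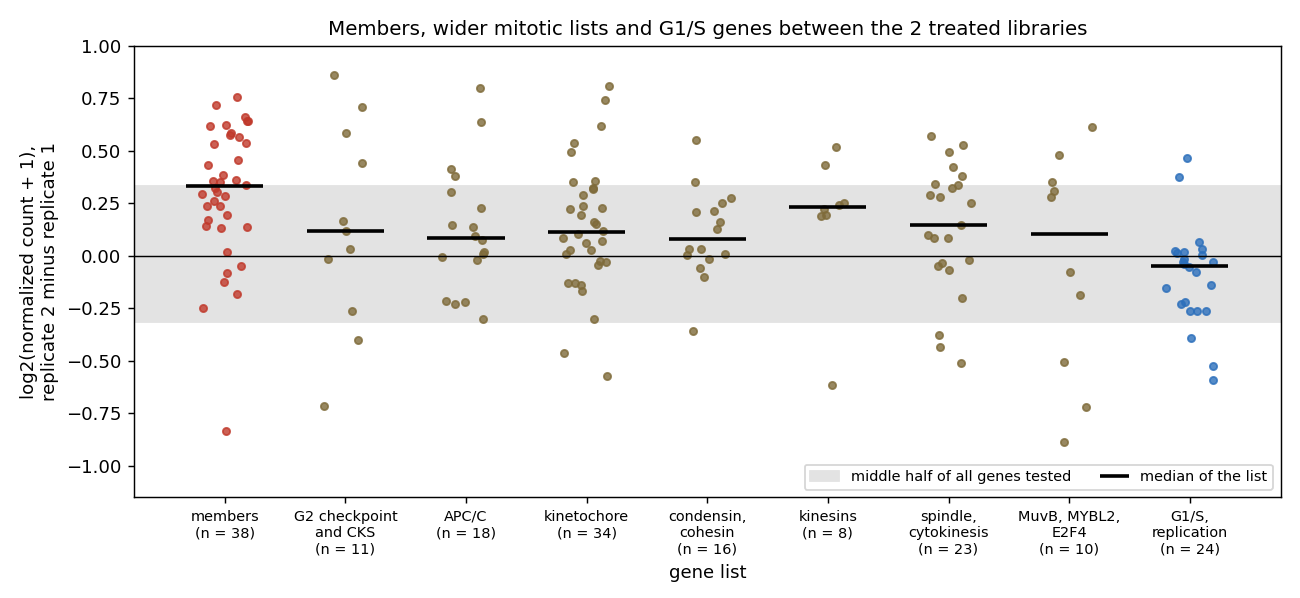
Difference of log2(normalized count + 1), replicate 2 minus replicate 1, for the 38 members (red), the 7 wider mitotic lists (brown) and the G1/S and replication genes (blue), 1 point per gene with the median of each list as a bar; the grey band is the interquartile range of all genes tested. The members' median is 0.33, those of the wider lists lie between 0.08 and 0.23, and that of the G1/S genes is -0.05.

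The highest of the wider genes was CKS2, a small CDK-binding subunit, at 209 RPKM in replicate 2 and 149 RPKM in replicate 1. UBE2S, which extends ubiquitin chains for the APC/C, stood at 105 RPKM in replicate 2 and 102 RPKM in replicate 1. LMNB1 (lamin B1 of the nuclear envelope) stood at 87.7 RPKM in both libraries, though in normalized counts it was higher in replicate 2 by 0.10 on the log2 scale. The largest gaps toward replicate 2 were 1.82-fold for CHEK2, a DNA damage checkpoint kinase, 1.75-fold for CENPH and 1.68-fold for CENPW of the inner kinetochore, 1.74-fold for ANAPC11 and 1.56-fold for ANAPC15 of the APC/C, and 1.63-fold for CDKN3, a CDK phosphatase. The largest gaps toward replicate 1 were 1.85-fold for LIN54 and 1.65-fold for MYBL2, followed by CCNF (cyclin F, an F-box protein) at 1.64-fold, the motor KIF18B at 1.53-fold, CENPT, which anchors NDC80 to the centromere, at 1.49-fold, and TROAP at 1.43-fold. These genes were picked as the largest of the list, so that their intervals excluded equal levels adds no support.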

How the data were processed

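The authors deposited 1 table of normalized counts, a signal made of gene counts divided by 1 size factor per library, as the values themselves show. Per the submitters' processing notes, the tools and build included Trimmomatic 0.36, STAR, featureCounts 1.5.3, DESeq2 1.26.0 and hg38; for the annotation and the strand setting the entry is "not given in the sources used here". Of 9 value columns, 7 matched none of the 4 labelled samples by name and were not used. Whole reads were recovered by dividing each column by its smallest step (100% of the 19775 quotients were whole to within 0.01; size factors 0.948 in replicate 2 and 0.932 in replicate 1). RPKM used merged exon lengths of GENCODE release 29 (GRCh38), available for 19283 genes. Differences are log2(normalized count + 1) over genes with a mean of at least 10, with exact binomial 95% intervals on reads (scipy 1.17.1). TMM factors and the biological coefficient of variation, 25.4% in a model with an intercept alone, came from edgeR 4.0.16 (R 4.3.3), the GC trend from mgcv 1.9.3. The steps were tested on simulated data. The planned limma test of XMD892 against E8 was not run. Members and lists were chosen with earlier results of these data known. All members were named; in role groups above 4 genes not every member has full values. Of the wider list, the 6 largest gaps each way and the 4 highest levels among genes with a mean of at least 50 were named.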

Additional observations from a re-analysis of the deposited data

How the results depend on the processing

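No paired analysis was possible because the E8 samples matched no column; for the same reason the planned test of XMD892 against E8 and all its alternatives (edgeR, DESeq2, TMM, pseudocounts, filters, replicate block, leaving out a library) were not run. The median difference of the members was 0.33. It was 0.23 with total reads as the scale and 0.26 after subtracting the length and GC trend. The number of members at least 1.5 times higher in replicate 2 was 8 of 38, beside 12.9% of all genes tested. On total reads it was 2 of 38, beside 10.1% of all genes. With the trend subtracted it was 5 of 38 (CDC25C, NUF2, PRC1, TOP2A, UBE2C), beside 12.5%. The members' share was thus below that of all genes on total reads and close to it with the trend subtracted. Fewer calls on total reads follow from the shift of all genes, and the cause of the other change was not tested. TMM factors, quantile normalization and pseudocounts of 0.5 and 5 gave a median of 0.32 to 0.33 and a count of 7 or 8. No filter and a minimum of 50 could not change a value of the members, which all pass either. Across the other 6 alternatives 31 or 32 members were higher in replicate 2, and CDCA8 alone changed sign, on total reads. The median level of 26.5 RPKM was 31.2 RPKM with the longest transcript as length and 26.6 RPKM with TMM library sizes; with 1 library left out it ranged from 25.3 to 28.1 RPKM. The lowest read count of a member in a library was 428, and the effect of depth on the levels was not tested. With 2 libraries the spread is poorly known, and the labels do not state whether they came from separate cultures.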
